A study of Homo sapiens with 4 samples.

Results

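The regions described here are the 5-methylcytosine peaks that lie in the autosomal 1 Mb windows richest in such peaks in C42B cells, a human prostate cancer line that descends from LNCaP and grows without androgen. They came from MeDIP-seq, the sequencing of methylated DNA after immunoprecipitation, in which sheared genomic DNA is pulled down with an antibody against 5-methylcytosine. Cells of the sgC (WT) genotype, called control here, carried a control guide RNA, and cells of the PKCl/i KO (sgPKCl/i) genotype, called knockout, carried a guide against PKCλ/ι, an atypical protein kinase C. Both were grown without treatment in RPMI medium with fetal bovine serum, glutamine and antibiotics and were collected 48 h after plating at about 70% confluency. Each genotype gave 1 immunoprecipitated and 1 input library, the labels do not say whether the cells were a clone or a pool, and the 2 genotypes are compared through 1 deposited peak list each. No difference between genotypes therefore has a replicate check, no p-value is given, and intervals (95%) cover counting error or the scatter of peaks within a library only.

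Windows were cut at whole megabases of hg19 by peak summit and were selected on the measured number of control peaks. Of 2720 autosomal windows with a peak in either list, 243 held 250 or more control peaks and are called dense windows. They held 78815 of the 261657 control peaks and 83130 of the 296521 knockout peaks. The 433 windows with 60 to 100 control peaks served as the comparison, with 34419 control and 40643 knockout peaks. The control counts of the dense windows are a description, since they made the choice. The 3 windows just inside the threshold were chromosome 20 at 34 to 35 Mb with 250 control peaks, chromosome 4 at 6 to 7 Mb with 252 and chromosome 12 at 12 to 13 Mb with 252. Just outside it were chromosome 17 at 38 to 39 Mb with 249, chromosome 9 at 135 to 136 Mb with 248 and chromosome 5 at 14 to 15 Mb with 247.

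In human cells 5-methylcytosine lies mainly at CpG dinucleotides. These are depleted from most of the genome and are gathered in GC-rich, gene-rich bands, where most CpGs outside active CpG islands are methylated. The antibody captures a fragment more readily the more methylated cytosines it carries, so MeDIP signal follows CpG density as well as methylation level. The sequence and the genes of the windows were not analysed here.

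The dense windows lay on all 22 autosomes, with the highest shares on chromosomes 22, 19, 17 and 16. On chromosome 22 they made up 52.8% of the windows (19 of 36), on chromosome 19 34.5% (20 of 58), on chromosome 17 34.2% (27 of 79) and on chromosome 16 24.7% (20 of 81). Chromosome 7 held 24 of them and chromosome 1 held 20, which was 15.2% and 8.70% of their windows. The fewest were on chromosome 18, with 2, and on chromosomes 4 and 6, with 3 each. Over all autosomes 8.93% of windows were dense, and these held 30.7% of the control and 28.6% of the knockout autosomal peaks.

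Many dense windows were neighbours or lay close to the outermost peaks of their chromosome, which need not lie at its ends. The 243 windows formed 135 runs of adjacent windows, of which 78 were lone windows and 25 were runs of 3 or more that took in 101 windows. The longest runs had 6 windows and lay on chromosome 12 at 120 to 126 Mb, chromosome 19 at 0 to 6 Mb and chromosome 22 at 38 to 44 Mb. Of the dense windows 74 (30.5%) lay within 5 Mb of the outermost peak of their chromosome, against 22 of the 433 comparison windows (5.08%) and 7.94% of all windows. Of the 44 windows with the first or last peak of a chromosome, 10 were dense. Among these 10 were chromosome 16 at 0 to 1 Mb with 426 control and 416 knockout peaks, and chromosome 11 at 0 to 1 Mb with 410 and 406.

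By chromosome, the dense windows were as follows, in Mb of hg19. Chromosome 1 had them at 1 to 3, 6 to 7, 8 to 12, 27 to 29, 32 to 34, 36 to 37, 46 to 47, 150 to 152, 155 to 157, 226 to 227, 235 to 236 and 246 to 247. On chromosome 2 they were at 3 to 4, 9 to 11, 25 to 26, 32 to 33, 203 to 204, 236 to 237 and 242 to 243, and on chromosome 3 at 47 to 50, 52 to 53, 128 to 129, 183 to 184 and 194 to 198. Chromosomes 4, 5 and 6 had few, at 1 to 3 and 6 to 7 on the first, at 0 to 2, 70 to 71, 176 to 177 and 179 to 180 on the second, and at 3 to 4, 34 to 35 and 42 to 43 on the last. Those of chromosome 7 were at 0 to 3, 5 to 7, 65 to 67, 72 to 76, 99 to 103, 128 to 130, 138 to 140, 148 to 149, 151 to 152 and 156 to 159. Chromosome 8 had them at 42 to 43, 141 to 142 and 144 to 146, and chromosome 9 at 97 to 98, 127 to 128, 130 to 135, 136 to 137 and 139 to 141. Chromosome 10 held lone windows at 0 to 1, 12 to 13, 70 to 71, 75 to 76, 104 to 105, 126 to 127, 131 to 132 and 134 to 135. On chromosome 11 they were at 0 to 1, 2 to 4, 9 to 10, 46 to 48, 61 to 64, 65 to 69 and 70 to 71. Those of chromosome 12 were at 1 to 2, 6 to 7, 12 to 13, 32 to 33, 49 to 51, 53 to 54, 56 to 57, 110 to 111, 112 to 113, 120 to 126 and 132 to 134.

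Chromosome 13 had dense windows at 20 to 22 and 113 to 115, and chromosome 14 at 35 to 36, 91 to 92, 100 to 101, 102 to 104 and 105 to 106. Chromosome 15 had them at 28 to 29, 41 to 43, 59 to 60, 65 to 66, 75 to 76, 90 to 91 and 101 to 102. On chromosome 16 they were at 0 to 5, 11 to 12, 14 to 16, 28 to 31, 67 to 68, 69 to 71, 81 to 82, 84 to 86 and 87 to 90. The 27 of chromosome 17 were at 0 to 5, 7 to 9, 17 to 20, 27 to 28, 29 to 30, 36 to 38, 40 to 42, 44 to 45, 55 to 56, 57 to 58, 65 to 66, 73 to 77 and 78 to 81. Chromosome 18 had only 12 to 13 and 77 to 78. On chromosome 19 they were at 0 to 6, 7 to 8, 10 to 12, 14 to 15, 16 to 20, 33 to 34, 36 to 37, 38 to 40 and 49 to 51. Chromosome 20 had 32 to 36 and 62 to 63, and chromosome 21 had 43 to 48. Those of chromosome 22 were at 18 to 22, 24 to 26, 29 to 30, 31 to 32, 36 to 37, 38 to 44, 45 to 48 and 50 to 51.

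In the windows with the most control peaks the knockout count was close to the control count. Chromosome 17 at 80 to 81 Mb held the most, 517 control and 516 knockout peaks, which covered 51.4% (control) and 55.9% (knockout) of the window. Chromosome 17 at 1 to 2 Mb followed with 504 control and 480 knockout peaks, and chromosome 7 at 74 to 75 Mb with 486 and 513. The other 7 of the 10 windows with the most control peaks were chromosome 17 at 73 to 74 Mb (479 control and 502 knockout), chromosome 16 at 4 to 5 Mb (474 and 476), chromosome 17 at 78 to 79 Mb (471 and 468), chromosome 7 at 2 to 3 Mb (469 and 456), chromosome 9 at 131 to 132 Mb (467 and 476), chromosome 7 at 72 to 73 Mb (449 and 477) and chromosome 1 at 10 to 11 Mb (448 and 449). Over the dense windows as a whole peaks covered 22.4% of the sequence in the control and 25.0% in the knockout, against 3.98% and 4.87% in the comparison windows. The median gap to the next peak was 1104 bp (control) and 1013 bp (knockout), where comparison windows had 4456.5 and 3743.5 bp.

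The knockout list, which the choice of windows did not use, held the same windows at high counts. Of the 243 dense windows 240 also held 250 or more knockout peaks. The 3 others were chromosome 19 at 0 to 1 Mb with 247, chromosome 12 at 132 to 133 Mb with 244 and chromosome 11 at 2 to 3 Mb with 243. Among the 243 windows with the most knockout peaks 227 were dense in the control. A further 63 windows reached 250 peaks in the knockout list alone, with control counts down to 199. Depth was not listed, and the knockout library was taken to be deeper from its lowest background alone. Its lowest background, which in the caller's model is the mean pileup over the genome, was 4.42 against 2.92 in the control, a ratio of 1.51.

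**Figure D1:**
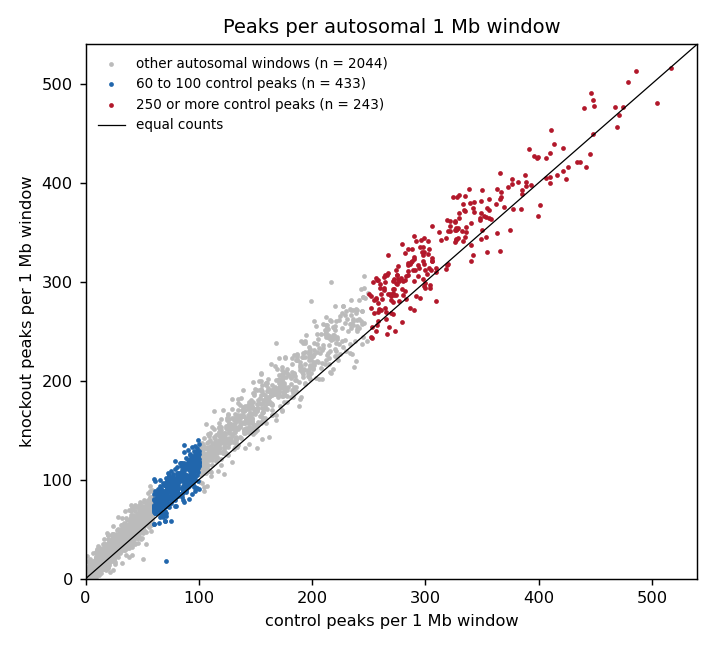
Knockout peaks (vertical axis) against control peaks (horizontal axis) in each autosomal 1 Mb window, 1 point per window. Dense windows (red, 250 or more control peaks) lie on both sides of the line of equal counts, with 190 above it and 52 below, while comparison windows (blue, 60 to 100 control peaks) lie mostly above it.

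Relative to the control, the knockout listed fewer peaks in dense than in comparison windows. The dense windows held 1.05 knockout peaks per control peak (83130 against 78815), and the comparison windows held 1.18 (40643 against 34419). The ratio of these was 0.893 (0.878 to 0.909), and the dense value was the lower on all 22 chromosomes. The divisor is the control count that chose the windows. Windows picked for a high control count can lie lower in any second list, so these values are a description. More knockout than control peaks were listed in 190 of the 243 dense windows and in 400 of the 433 comparison windows. The excess itself turned in the dense windows once the larger knockout list was held to its strongest peaks, as many as the control had. They then held 74778 knockout against 78815 control peaks, and the comparison windows 35657 against 34419. With the knockout first scaled to the control's depth, as taken from the lowest backgrounds, the numbers were 74798 and 35660. The counts per window given here are from the full lists. Where windows were picked by the knockout list instead, the ratio was 0.896. By covered length the excess was 1.11 in dense and 1.22 in comparison windows.

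In 52 dense windows the knockout had fewer peaks. Knockout peaks covered more of the window in 46 of these, in all of the other 191 and so in 237 of the 243. The 5 with the lowest knockout count per control peak were chromosome 16 at 1 to 2 Mb (366 control and 331 knockout peaks), chromosome 7 at 100 to 101 Mb (309 and 280), chromosome 7 at 1 to 2 Mb (273 and 250), chromosome 19 at 4 to 5 Mb (399 and 366) and chromosome 12 at 133 to 134 Mb (279 control peaks, ratio 0.93). In all 5 the knockout peaks covered more, for example 39.4% against 38.3% in the first and 40.1% against 38.2% on chromosome 19. The 52 windows had a median of 341 control peaks and a mean coverage of 30.4% by control and 32.1% by knockout peaks. The other 191 had a median of 303 control peaks and a mean coverage of 20.2% and 23.0%. A high control count itself favours fewer knockout than control peaks, so these values are a description.

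The 5 windows with the highest knockout count per control peak were less crowded. Chromosome 20 at 33 to 34 Mb held 327 knockout and 267 control peaks, a ratio of 1.22. Chromosome 16 at 81 to 82 Mb held 338 and 279, chromosome 17 at 37 to 38 Mb held 346 and 290, chromosome 3 at 47 to 48 Mb held 386 and 324, and chromosome 17 at 29 to 30 Mb held 304 and 256. Their control coverage ran from 13.9% to 18.9%, below the mean of the dense windows. The control count is the divisor in this ranking, so a low control coverage is partly built into it.

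Peaks that spanned more than 1 peak of the other list were more frequent in the dense windows. Of the knockout peaks there that overlapped a control peak, 6.61% (6.43 to 6.80) spanned more than 1 control peak, against 2.35% (2.18 to 2.53) in the comparison windows. The reverse, a control peak over more than 1 knockout peak, was found for 3.73% (3.59 to 3.87) and 1.28% (1.16 to 1.42). The most control peaks under 1 knockout peak was 8 in dense windows and 4 in comparison windows. Dense windows were chosen for many control peaks, which lie closer together there, so these shares are a description. The longest knockout peak of the dense windows lay on chromosome 19 at 1910660 to 1927781 and measured 17122 bp. The control list had its longest peak at the same place, 11264 bp from 1916710 to 1927973. The next longest knockout peaks were on chromosome 8 at 144990190 to 145005330 (15141 bp) and chromosome 16 at 2661873 to 2676400 (14528 bp), and those of the control on chromosome 16 at 581488 to 592621 (11134 bp) and chromosome 5 at 1051316 to 1061187 (9872 bp).

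Methylated regions were longer in the dense windows in both genotypes. In the control list the median length was 522 bp (519 to 524, quartiles 389 and 796) in dense and 428 bp (426 to 430, quartiles 349 and 556) in comparison windows. In the knockout list it was 537 bp (534 to 539, quartiles 398 and 836) and 433 bp (432 to 435, quartiles 354 and 568). The difference was 94 bp for control peaks and 104 bp for knockout peaks, and dense windows had the higher median on all 22 chromosomes in both lists. Among strong peaks (−log10 q of at least 10) the difference was 149 bp in the control, more than 1.5 times as large, and 135 bp in the knockout. Peaks of 1000 bp or more made up 15.7% of control and 17.8% of knockout peaks in dense windows, against 4.16% and 5.46% in comparison windows. Per window the median length ran from 440 to 845 bp in the control and from 451 to 869.5 bp in the knockout.

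Pileup, the number of overlapping fragments at a peak's summit, was also higher in the dense windows. Over the lowest background of its list the median control pileup was 9.24 in dense and 7.87 in comparison windows (27 and 23 fragments), a ratio of 1.17. The knockout medians were 9.27 and 7.46 (41 and 33 fragments), a ratio of 1.24. Quartiles in the dense windows were 7.18 and 12.3 in the control and 7.01 and 12.7 in the knockout. In both lists the dense median was the higher on all 22 chromosomes. Autosomal peaks as a whole had a control median of 8.55 and a knockout median of 8.14.

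The local background was higher along with the pileup. Its median was 1.29 times the lowest in dense and 1.02 times in comparison windows in the control, and 1.46 and 1.06 times in the knockout. Background at its lowest value was found under 17.7% of control peaks in dense windows against 43.4% in comparison windows, and under 13.4% against 40.2% of knockout peaks. The authors' fold enrichment, which divides pileup by that background, differed less, with medians of 5.60 and 5.35 in the control and of 5.51 and 5.35 in the knockout. Dense windows had the higher median fold on 16 of 22 chromosomes in each list and the lower on 6. Across the 243 dense windows the control's median background and median pileup had a Pearson r of 0.88 (Spearman 0.85), a description over windows of 1 library. A peak is listed only where its pileup exceeds its background by enough, so a positive r is partly built in. The part of the background in the higher pileup was not tested.

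**Figure D2:**
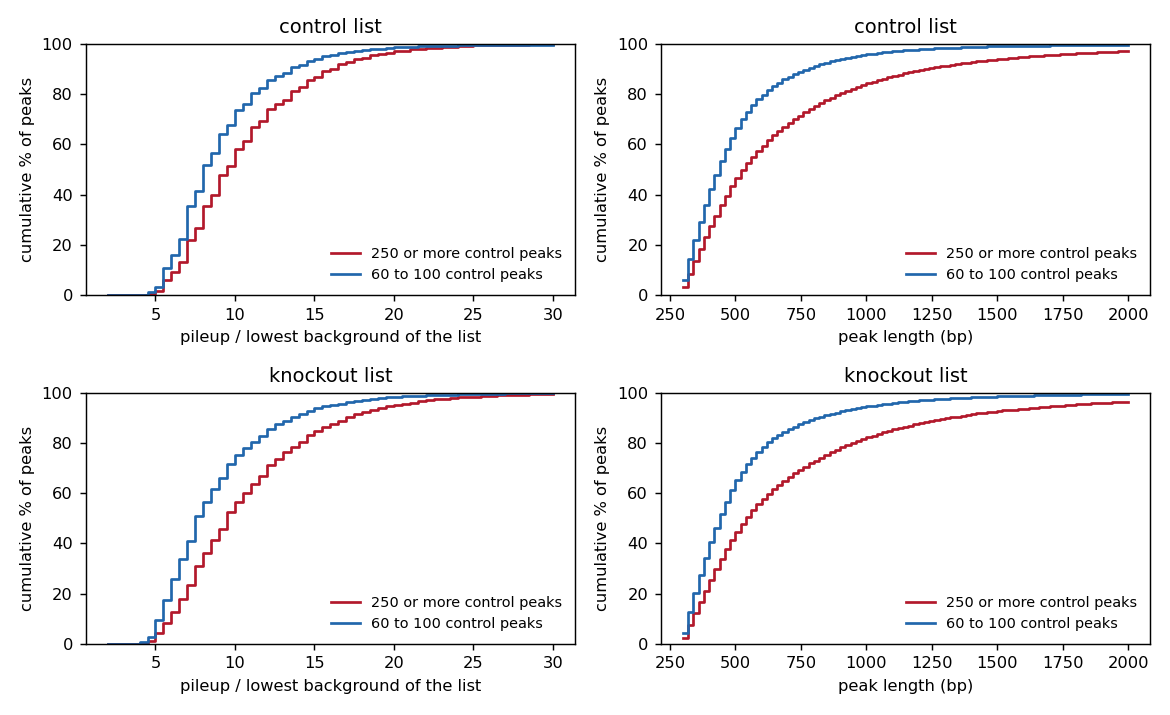
Cumulative share of peaks (vertical axis, %) by pileup over the lowest background of the list (left) and by peak length in bp (right), for the control list (top) and the knockout list (bottom). The curves of dense windows (red) lie to the right of those of comparison windows (blue) in all 4 panels, with median lengths of 522 against 428 bp in the control and 537 against 433 bp in the knockout.

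Among dense windows the strongest regions found in both genotypes stood far above the median. With background at most 2 times the lowest, the highest control pileups were 116 on chromosome 22 at 21661786 to 21663202, 108 on chromosome 7 at 100434530 to 100435818, 105 on chromosome 7 at 158707618 to 158710254, 104 on chromosome 22 at 21538546 to 21540023 and 101 on chromosome 5 at 70514218 to 70517144. These were 34.6 to 39.7 times the lowest background. In the knockout they were 157 on chromosome 7 at 156760493 to 156761387, 156 on chromosome 16 at 69140745 to 69142072, 151 on chromosome 18 at 77082824 to 77083507, 147 on chromosome 7 at 99935705 to 99936312 and 147 on chromosome 16 at 29494230 to 29497211, or 33.2 to 35.5 times the lowest background. The peak on chromosome 18 had the highest fold of the 10, 23.8.

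Methylated regions of the dense windows were more often found in both genotypes. Peaks in the control list only, sharing no base with a knockout peak, made up 9.10% (8.90 to 9.31) of control peaks in dense windows and 14.2% (13.9 to 14.6) in comparison windows, with 12.0% over all autosomes. Knockout-only peaks made up 16.6% (16.4 to 16.9) and 28.2% (27.8 to 28.6), with 23.7% over all autosomes. The differences were -5.13 percentage points (-5.56 to -4.72) for the control and -11.6 (-12.1 to -11.1) for the knockout. The dense share was the lower on all 22 chromosomes in both lists. Both shares depend on the control peaks that chose the windows, since a knockout peak is list-only where no control peak meets it. In windows picked by the knockout list they were 9.12% against 14.3% for the control and 17.7% against 29.1% for the knockout, with the same dependence on the list that chose. With the stricter rule of at least 50% reciprocal overlap the control's direction turned, with 22.3% unmatched in dense and 21.0% in comparison windows, a difference of 1.33 points. The knockout then had 26.4% against 33.1%.

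Strong peaks, those with a −log10 q of at least 10, showed the same order. In dense windows 1028 of 49019 strong control peaks had no counterpart of any strength, 2.10% (1.97 to 2.23), against 4.48% (4.19 to 4.79) in comparison windows and 3.21% over all autosomes. Strong knockout-only peaks numbered 6061 of 65110, 9.31% (9.09 to 9.53), against 18.5% (18.1 to 19.0) and 14.7% over all autosomes. Where the counterpart had to be strong too, the dense shares were over 3 times as large, at 7.05% of control and 31.3% of knockout peaks, against 10.9% and 44.3% in comparison windows. For peaks of any strength both shares were lower at each step over 6 classes of windows. Knockout-only peaks of any strength made up 34.1% of knockout peaks where a window held 0 to 59 control peaks, 25.5% at 101 to 149, 23.3% at 150 to 199, 21.1% at 200 to 249 and 16.6% at 250 or more. The control-only share went from 16.0% in the sparsest class through 13.2%, 12.0% and 10.9% to 9.10%. The classes were cut by the control count, and both shares depend on the control peaks, so the order of the classes is a description for both lists.

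**Figure D3:**
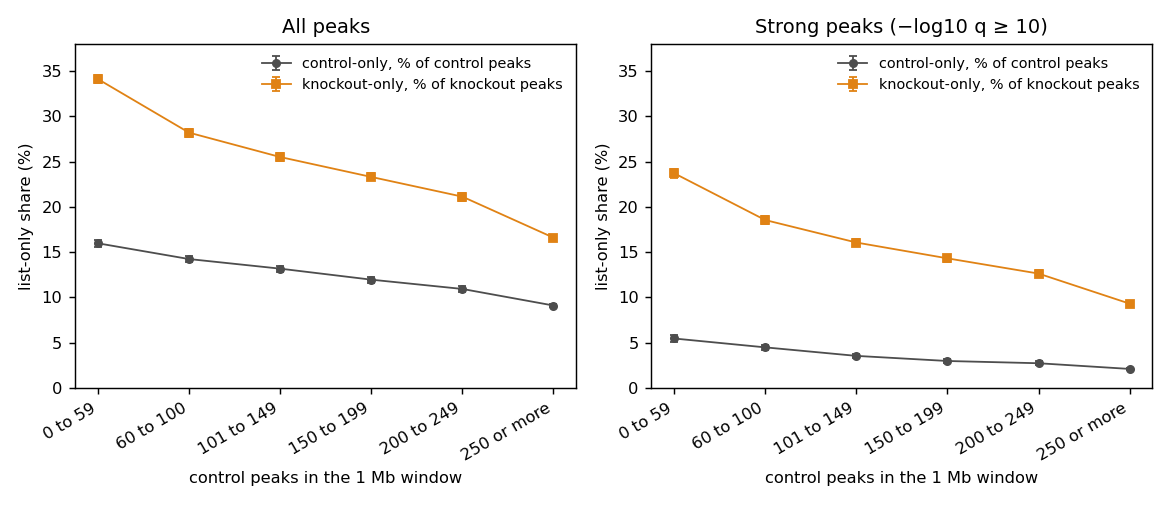
Share of peaks with no counterpart in the other list (vertical axis, %) by the number of control peaks in the window (horizontal axis), for all peaks (left) and strong peaks (right), in the control (grey circles) and the knockout (orange squares). Bars are 95% exact binomial intervals for counting error, and both shares are lowest in windows of 250 or more control peaks, at 9.10% and 16.6% for all peaks.

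The share was also lower among peaks of like strength. At a −log10 q of 10 to 15 the knockout-only share was 24.8% (24.1 to 25.4) in dense and 36.9% (36.0 to 37.8) in comparison windows, and at 20 to 30 it was 3.16% (2.89 to 3.44) and 5.59% (5.05 to 6.16). The control-only share at 10 to 15 was 4.83% (4.53 to 5.15) and 8.25% (7.69 to 8.85). At 30 and above, 0 of 6263 control peaks in dense windows lacked a counterpart, which allows a share of up to 0.0589% by the exact interval, and 6 of 1544 did in comparison windows. Weighting the comparison windows to the strengths found in dense windows gave 12.1% control-only and 23.3% knockout-only peaks. The dense values were 9.10% and 16.6%. Control peaks chose the windows and both shares depend on them in every bin, so these values are a description. The part of peak strength or length in the lower shares was not tested. Weighting to the lengths found in dense windows gave 9.99% and 20.1%. Within each of 6 length classes the dense share was the lower in both lists. For control peaks it was, for example, 8.13% (7.70 to 8.58) against 8.38% (7.80 to 8.99) at 400 to 500 bp. For knockout peaks it was 16.9% (16.3 to 17.5) against 20.1% (19.4 to 20.9) at that length. The intervals cover counting error only, since peaks of a library are not replicates.

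**Figure D4:**
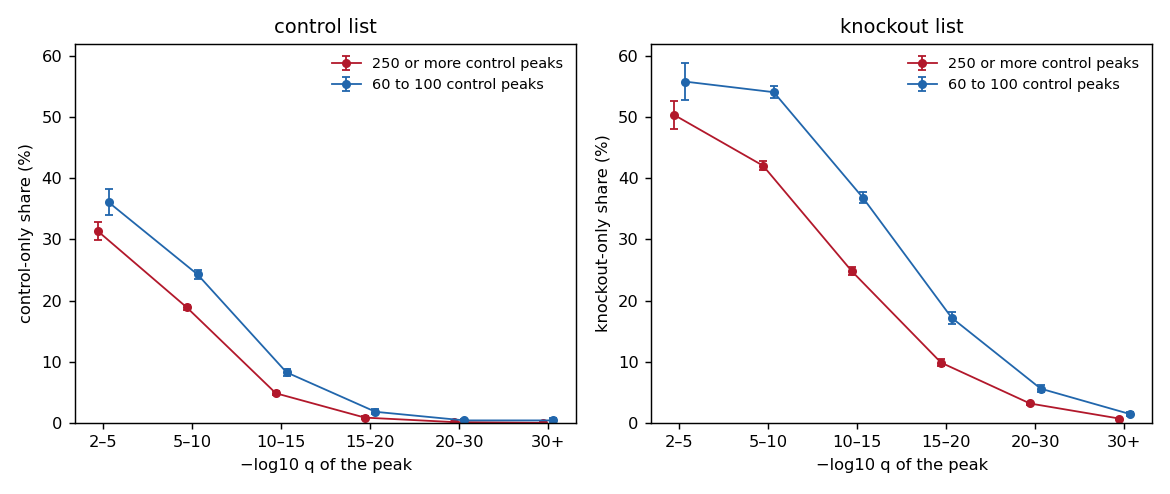
Share of control-only peaks (left) and knockout-only peaks (right) by the peak's −log10 q, in dense windows (red) and comparison windows (blue), with 95% exact binomial intervals. In each bin the dense share is the lower, for example 24.8% against 36.9% of knockout peaks at 10 to 15.

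Peaks of the other list also lay closer in the dense windows. Knockout peaks covered 25.0% of a dense window and 4.87% of a comparison window, and control peaks 22.4% and 3.98%. Of the knockout-only peaks of dense windows 58.7% lay within 1000 bp of a control peak, at a median gap of 766 bp, against 26.0% and 2537.5 bp in comparison windows. For control-only peaks these were 59.4% and 749 bp against 28.4% and 2234 bp. The part of crowding in the lower shares was not tested.

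In number, list-only peaks were more frequent in the dense windows, since all peaks were. A dense window held 29.5 control-only and 56.8 knockout-only peaks on average, and a comparison window 11.3 and 26.5. With lists of equal size the order turned in the dense windows, which then held 11108 control-only and 9835 knockout-only peaks (11046 and 9779 after scaling for depth), while the comparison windows held 6972 and 8639 (6950 and 8627). The dense windows held 23.4% of all autosomal control-only peaks and 20.1% of the knockout-only ones, below their shares of all peaks. List-only peaks were short and low in both kinds of window. In dense windows control-only peaks had a median length of 349 bp and knockout-only peaks of 360 bp, where shared peaks had 550 and 594 bp. Their median pileup was 6.50 and 6.33 times the lowest background, where shared peaks had 9.58 and 10.2 times.

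Dense windows differed among themselves in these shares. The knockout-only share ran from 6.0% to 26.5% with a median of 16.9%, and the control-only share from 3.09% to 21.7% with a median of 8.85%. In the full lists the knockout-only share exceeded the control-only share in 229 of the 243. With lists of equal size over the genome the dense windows together had 14.1% control-only and 13.2% knockout-only peaks, in the same order as after scaling for depth. The order of the 2 shares in dense windows was thus not that of the full lists. Comparison windows then had 20.3% control-only and 24.2% knockout-only peaks. In the full lists the knockout-only share was highest on chromosome 19 at 49 to 50 Mb (102 of 385 peaks, 26.5%), chromosome 15 at 42 to 43 Mb (78 of 300, 26.0%) and chromosome 17 at 55 to 56 Mb (78 of 302, 25.8%). It was lowest on chromosome 7 at 1 to 2 Mb (15 of 250, 6.0%), chromosome 12 at 133 to 134 Mb (17 peaks, 6.56%) and chromosome 3 at 195 to 196 Mb (30 of 412, 7.28%). The first 3 of these windows had median knockout pileups of 7.23, 8.59 and 7.69 times the lowest background, and the last 3 of 12.9, 11.1 and 9.04. Over all 243 the knockout-only share and the knockout's median pileup had a Pearson r of -0.66 (Spearman -0.64), as a description of windows from 1 library. The control-only share and the control's median pileup had an r of -0.22 (Spearman -0.21). List-only peaks were low and count in the medians of their own windows. A negative r is therefore partly built in, as is the contrast of the named windows.

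Control-only peaks took their highest shares on chromosome 2 at 25 to 26 Mb (63 of 290 peaks, 21.7%), chromosome 11 at 2 to 3 Mb (44 of 253, 17.4%) and chromosome 10 at 131 to 132 Mb (46 of 271, 17.0%). In the first 2 it was above the knockout-only share, which was 15.5% and 15.2%. It was lowest on chromosome 17 at 80 to 81 Mb (16 of 517, 3.09%), chromosome 12 at 133 to 134 Mb (11 of 279, 3.94%) and chromosome 16 at 70 to 71 Mb (13 of 330, 3.94%). The latter also had 84 knockout-only peaks among 388.

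Some strong regions of the dense windows were nonetheless listed in 1 genotype alone. The 5 knockout-only peaks of highest fold were on chromosome 1 at 235105484 to 235106148 with pileup 82 and fold 14.5, chromosome 19 at 518685 to 519171 with 85 and 14.2, chromosome 9 at 131872271 to 131873032 with 103 and 13.7, chromosome 16 at 3549878 to 3550559 with 94 (76.0 to 115) and 12.7, and chromosome 6 at 42521649 to 42522253 with 103 (84.1 to 125) and 11.0. Their pileups were 18.5 to 23.3 times the lowest background, against a median of 9.27. The nearest control peak lay 479 bp away for the peak on chromosome 19, 509 bp for that on chromosome 16 and over 1000 bp for the others.

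The 5 control-only peaks of highest fold were lower. They were on chromosome 17 at 874570 to 876281 with pileup 42 and fold 10.5, chromosome 1 at 150748346 to 150748821 with 39 and 9.99, chromosome 5 at 360547 to 361247 with 38 (26.9 to 52.2) and 9.47, chromosome 3 at 183215557 to 183215975 with 42 and 8.99, and chromosome 2 at 25084297 to 25084785 with 34 (23.5 to 47.5) and 8.92. Their pileups were 11.6 to 14.4 times the lowest background. The nearest knockout peak was 153 bp from the peak on chromosome 2 and 761 bp from that on chromosome 5.

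Regions listed in both genotypes had much the same level relative to the lowest background of their list. Peaks that matched each other and nothing else formed 60003 pairs in dense and 27796 in comparison windows. Knockout pileup was divided by control pileup after scaling both by the lowest backgrounds, and the log2 ratio had a median of 0.06 (0.06 to 0.07) in dense and 0.01 (0.01 to 0.02) in comparison windows, and of 0.04 over all 202907 autosomal pairs. The difference between the 2 kinds of window was 0.05, against an SD of 0.33 among dense pairs. The ratio of background moved with it, with a mean log2 of 0.16 in dense, 0.08 in comparison and 0.11 in all pairs. The median log2 of the background ratio was 0.11, 6.87e-07 and 0.04. Dense windows had the higher median on 19 of 22 chromosomes. The scaling removes any change common to the whole genome, so these ratios cannot show one. Pairs also exist only where both lists had a peak.

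Large differences within pairs were rare. Pairs more than 2-fold above the median pair numbered 202 in dense windows, 0.337% against 0.367% of all autosomal pairs, and those more than 2-fold below it 74, 0.123% against 0.198%. The pair that was highest in the knockout lay on chromosome 13 at 21276781 to 21277198 in the control with pileups of 15 (control) and 130 (knockout) and a log2 ratio of 2.52. The next were on chromosome 7 at 158598780 to 158599079 with 16 and 106 (log2 ratio 2.13) and chromosome 19 at 7680751 to 7681055 with 21 and 126 (1.99). On chromosome 19 the peaks of the pair overlapped only at their edges, the control peak ending at 7681055 and the knockout peak spanning 7679868 to 7680770. The lowest pairs were on chromosome 17 at 79386296 to 79387746 with 49 and 29 (log2 ratio -1.35), chromosome 19 at 16390406 to 16391011 with 29 and 18 (-1.29) and chromosome 11 at 9224044 to 9224517 with 43 and 27 (-1.27). A pileup of 15 or 16 lies near the lowest control value of 10, so counting error is wide for the first pairs.

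Between dense windows the paired level differed by chromosome. Of the 243 medians 215 were above 0 and 28 below, and 19 of the 28 were on chromosomes 1 (7 of 20 dense windows), 2 (7 of 8) and 3 (5 of 10). The 3 lowest were neighbours on chromosome 3, at 195 to 196 Mb with -0.24 over 328 pairs, at 196 to 197 Mb with -0.23 over 276 and at 197 to 198 Mb with -0.20 over 222. Their mean log2 background ratios were -0.12, -0.11 and -0.12. The 3 highest were chromosome 16 at 67 to 68 Mb with 0.23 over 262 pairs, chromosome 17 at 27 to 28 Mb with 0.23 over 274 and chromosome 3 at 52 to 53 Mb with 0.21 over 226. There the mean log2 background ratios were 0.26, 0.25 and 0.25. Over the 243 windows the median pileup ratio and the mean background ratio had a Pearson r of 0.78 (Spearman 0.57). This is a description over windows of 1 library per genotype. In both lists a peak's pileup must exceed its background, so a positive r is partly built in. The median pileup ratio had a Pearson r of -0.48 (Spearman -0.40) with the control-only share and of 0.13 (Spearman 0.05) with the knockout-only share. The windows of highest control-only share, on chromosomes 2, 11 and 10, had median ratios of -0.13, -0.06 and -0.03. DNA amount and methylation per DNA copy cannot be told apart in these ratios.

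**Figure D5:**
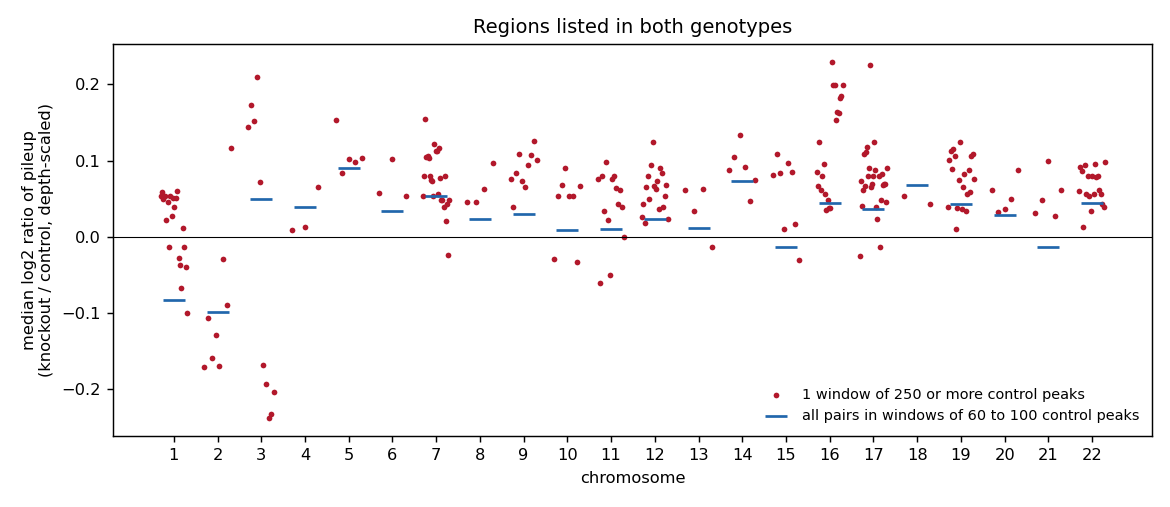
Median log2 of the scaled pileup ratio (knockout / control) in each dense window (red points, in order along each chromosome) and over all pairs in comparison windows of the same chromosome (blue bars). The quartiles of the dense windows are 0.04 and 0.09, 7 of the 8 of chromosome 2 and 5 of the 10 of chromosome 3 lie below 0, and 9 of chromosome 16 lie at 0.15 to 0.23.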

How the data were processed

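The submitters' processing notes name FastQC, BWA, MACS2 and the build hg19. Their versions and settings, and whether duplicate reads were dropped, are not given in the sources used here. Per the file headers, the authors' lists give each peak's position, length, summit, pileup signal, fold enrichment (a ratio to local background) and −log10 p and −log10 q. The pileup signal was deposited unscaled. Lists were matched to samples by genotype and antibody words.

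The local background was recomputed as (pileup + 1) / fold − 1. A Poisson tail with it gave the deposited −log10 p within 0.000573 in the control and 0.000329 in the knockout. Depth was not listed, so pileups were divided by the lowest background, 2.92 in the control and 4.42 in the knockout. Intervals are Clopper-Pearson for shares, Newcombe for their differences, Wald on the log scale for ratios of counts, exact Poisson for pileups and order-statistic for medians. Python 3.11.15, pandas 2.3.3 and SciPy 1.17.1 were used, and functions were tested on simulated lists. Members, lists and the rule for named windows and peaks (the extremes of each measure) were chosen with earlier results of these data known. The groups of windows on chromosomes 1, 3 and 16 in the closing section were chosen after their values were seen. Alternatives varied overlap, strength, depth, chromosomes, background and windows. No sequence is shown, since no genome of the build was used.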

Additional observations from a re-analysis of the deposited data

How the results depend on the processing

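Of 78 alternatives over 9 results, 38 stayed within the main interval (counts within 1.5 times), 39 left it and 1 turned direction. With 200 control peaks as the threshold there were 380 dense windows, and the values against comparison windows were -4.62 points control-only, -10.3 points knockout-only, pileup ratios of 1.13 and 1.21, lengths 77 and 84 bp longer, and a paired log2 difference of 0.042. With 300 there were 136 windows, and the values were -5.74 and -12.9 points, 1.22 and 1.30, 116 and 128 bp, and 0.057. With both lists held to a −log10 q of at least 10 the relative number of knockout peaks was 0.836, and the others were -3.87 and -12.9 points, 1.14 and 1.24, 149 and 135 bp, and 0.057. With the knockout list held to the control's number of peaks these were 0.916, -6.16 and -11.1 points, and 118 bp in the knockout. After scaling the knockout to the control's depth they were 0.916, -6.18 points control-only and 118 bp. When list-only meant over 1000 bp from any peak of the other genotype, the shares differed by -6.50 and -14.0 points. With 50% reciprocal overlap they differed by -6.73 points in the knockout and by 1.33 in the control, the reversal, and the cause was not tested. Without chromosomes 2 and 3 the control-only difference was -4.49 points and the knockout pileup ratio 1.24. In windows picked by the knockout list that ratio was 1.21 and lengths differed by 87 and 93 bp. Depth was not listed, and what it limits could be judged only from the lowest backgrounds of 2.92 and 4.42. No paired analysis was possible because there was 1 library per genotype.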

Other observations

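On chromosomes 3 and 16 the dense windows fell into 2 groups by position, chosen here after their values were seen. On chromosome 16 the 11 dense windows before 40 Mb had median log2 ratios of 0.04 to 0.12, and the 9 from 40 Mb on had 0.15 to 0.23. The mean background ratio ran from 0.12 to 0.26 in the first group and from 0.16 to 0.37 in the second. On chromosome 3 the 5 before 150 Mb had ratios of 0.07 to 0.21 with backgrounds of 0.18 to 0.25, and the 5 from 150 Mb on had -0.24 to -0.17 with backgrounds of -0.12 to -0.10. The former 5 held 117 control-only of 1598 peaks (7.32%) and 376 knockout-only of 1812 (20.8%). The latter 5 held 218 of 1680 (13.0%) and 201 of 1671 (12.0%), so there the control-only share was the higher. On chromosome 1 the 13 dense windows before 100 Mb had ratios of -0.01 to 0.06 and the 7 from 100 Mb on had -0.10 to 0.01, so these overlapped. The 27 dense windows of chromosome 17 had a median of 0.07 and the 19 of chromosome 22 a median of 0.06, with no window below 0 on chromosome 22.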
